A study of Homo sapiens with 12 samples.

Results

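The insulin-like growth factor (IGF) axis was followed by messenger RNA sequencing in HepG2, a long-established line of human liver cancer cells. Its 10 genes were taken by symbol from the known axis, with earlier results of these data in view: the ligand IGF2, the binding proteins IGFBP1, IGFBP2, IGFBP3, IGFBP4 and IGFBP6, the complex subunit IGFALS, and the receptors IGF1R, IGF2R and INSR. They are 10 of 58735 genes in the count table, where they fill 11 rows because IGF2 has a second row that is 0 in all 12 libraries. The libraries form 4 groups of 3. One group received nobiletin, a polymethoxylated flavonoid of citrus peel, at 5 µM (NOB), and another received sorafenib, a kinase inhibitor used against liver cancer, at 2 µM (SOR). The third group received both compounds at those doses (SOR+NOB), and the last received vehicle (Control). All groups shared 1 cell line, grown in Eagle's Minimal Essential Medium with fetal bovine serum, so the cells also met growth factors and binding proteins from serum. How long the cells were exposed, and whether replicates came from separate cultures, is not given in the sources used here, so p-values measure the spread between these libraries, which may be technical.

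IGF2 and its relative IGF1 are secreted peptides that signal through the receptor tyrosine kinase IGF1R and through INSR, the insulin receptor, while IGF2R takes IGF2 up for breakdown in lysosomes. Most IGF outside cells is held by binding proteins, which lengthen its life and limit its access to receptors. The liver is the main source of circulating IGF1, IGFBP1 and IGFALS, and IGFBP1 in liver is known to be lowered by insulin and raised by fasting and by cellular stress. IGF2 is a fetal growth factor that many liver tumours express.

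The total count was 17945656 to 25669823 per library, and each member passed the filter on low counts. The hepatocyte markers ALB, AFP, APOA1, APOB, TTR, SERPINA1, FGB and HNF4A were all detected in every group, which fits the labelled cell type. CPM are counts of a gene scaled to library size, here by TMM. These markers summed to 25528 to 26239 CPM in NOB, 66530 to 69138 in SOR, 26729 to 30362 in SOR+NOB and 40251 to 42290 in Control. They did not all follow that sum. In SOR, APOB and TTR averaged below Control and the others above it, with ALB at 21066 CPM against 6428 in Control. In NOB, APOA1, SERPINA1 and HNF4A averaged above Control and the others below it. In SOR+NOB, ALB, APOA1 and SERPINA1 averaged above Control and the others below it. The 5 fibroblast and stellate cell markers summed to 8.33 to 10.4 CPM in NOB, 3.85 to 4.44 in SOR, 2.31 to 3.19 in SOR+NOB and 23.2 to 24.9 in Control, and COL3A1 or DCN or both were at 0 in each group. Nearly all of that sum was PDGFRB, which averaged 9.31 CPM in NOB, 3.80 in SOR, 2.44 in SOR+NOB and 23.4 in Control, while COL1A1, COL3A1, DCN and THY1 each averaged at most 0.306 CPM in any group. The 4 endothelial markers summed to 12.4 to 13.8 CPM in NOB, 13.2 to 17.8 in SOR, 5.75 to 7.64 in SOR+NOB and 12.8 to 17.5 in Control, with SOR+NOB below the other groups, and CD3E was at 0 in each group. The leukocyte list of 4 genes summed to 705 to 722 CPM in NOB, 319 to 332 in SOR, 207 to 229 in SOR+NOB and 595 to 620.4 in Control, nearly all of it LYZ, and without LYZ it reached at most 0.278 CPM. CD3E of that list was at 0 in each group. Replicate 1 of SOR+NOB stood apart: it held 20138 genes with a count, against 22542 to 25014 in the other libraries, and its chi-square per degree of freedom against the other SOR+NOB libraries was 19.2 and 27.6, while other pairs of replicates had 2.78 to 5.58. Mitochondrial ribosomal RNA took 1.73% to 1.78% of counts in NOB, 1.84% to 2.01% in SOR, 2.75% to 3.10% in SOR+NOB and 1.32% to 1.40% in Control. Mitochondrial messenger RNA took 7.64% to 7.74% in NOB, 8.30% to 9.0% in SOR, 3.40% to 4.68% in SOR+NOB and 6.49% to 7.11% in Control, so SOR+NOB was highest in the first and lowest in the second. The part of these differences in the results below was not tested, and in bulk RNA fewer cells of a type and less RNA per cell cannot be told apart.

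All 10 genes differed among the 4 groups (adjusted p 7.94e-22 for IGFBP1 to 0.000248 for IGFBP6 by edgeR's quasi-likelihood F-test with Benjamini-Hochberg adjustment over 17115 genes), where 78.5% of all genes tested did. Every adjusted p given for a gene below comes from that edgeR model unless another tool is named. In NOB against Control 9 of 10 members were called at adjusted p below 0.05, where 38.2% of all genes were, with 1 higher (18.9% of all genes) and 8 lower (19.2%). In SOR against Control all 10 were called, where 41.0% of all genes were, with 3 higher (21.7% of all genes) and 7 lower (19.3%). In SOR+NOB against Control 9 were called, where 64.2% of all genes were, with 3 higher (32.2%) and 6 lower (32.0%). The median log2 fold change of the members was -0.38 in NOB, -0.48 in SOR and -0.68 in SOR+NOB, where that of all genes was 0.01, 0.00 and -0.02. These 3 comparisons share the Control libraries.

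**Figure D1:**
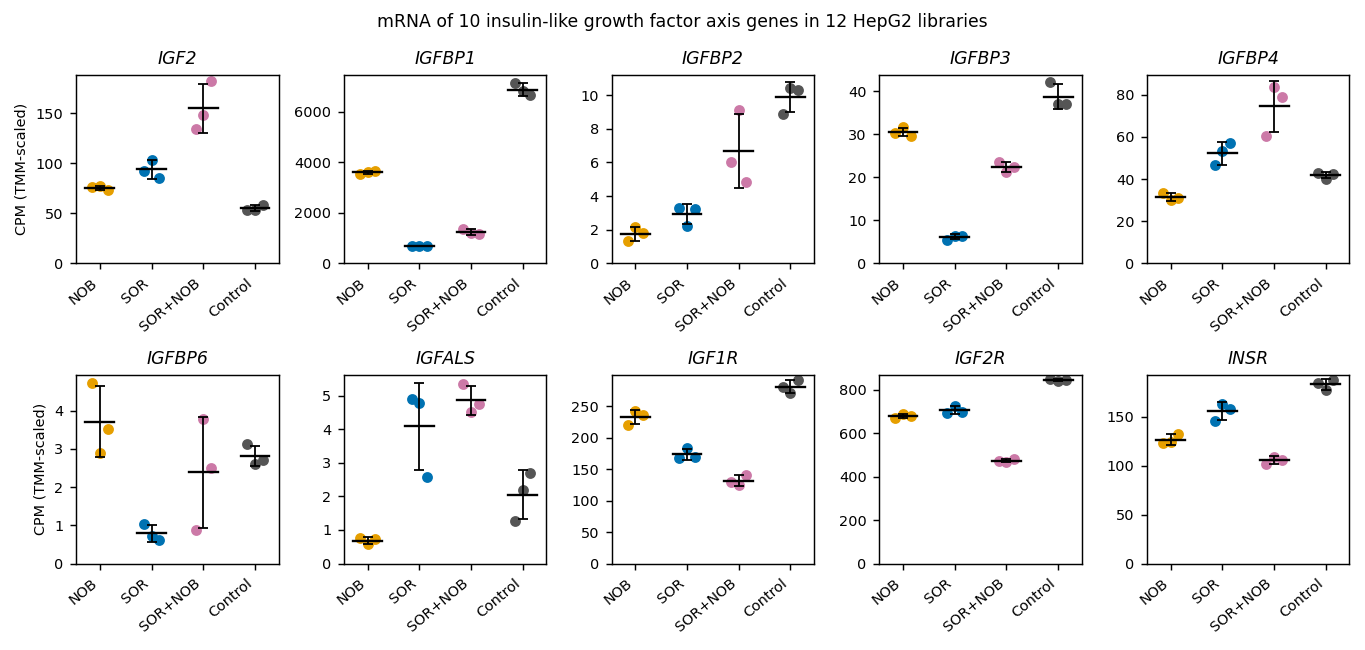
TMM-scaled CPM of each gene in every library (points), with the group mean and SD (bars, n = 3), for NOB, SOR, SOR+NOB and Control from left to right; each panel has its own axis from 0. IGF2 was highest in SOR+NOB, the receptors and IGFBP1 were highest in Control, and the IGFBP6 libraries of SOR+NOB spread from 0.880 to 3.78 CPM.

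**Figure D2:**
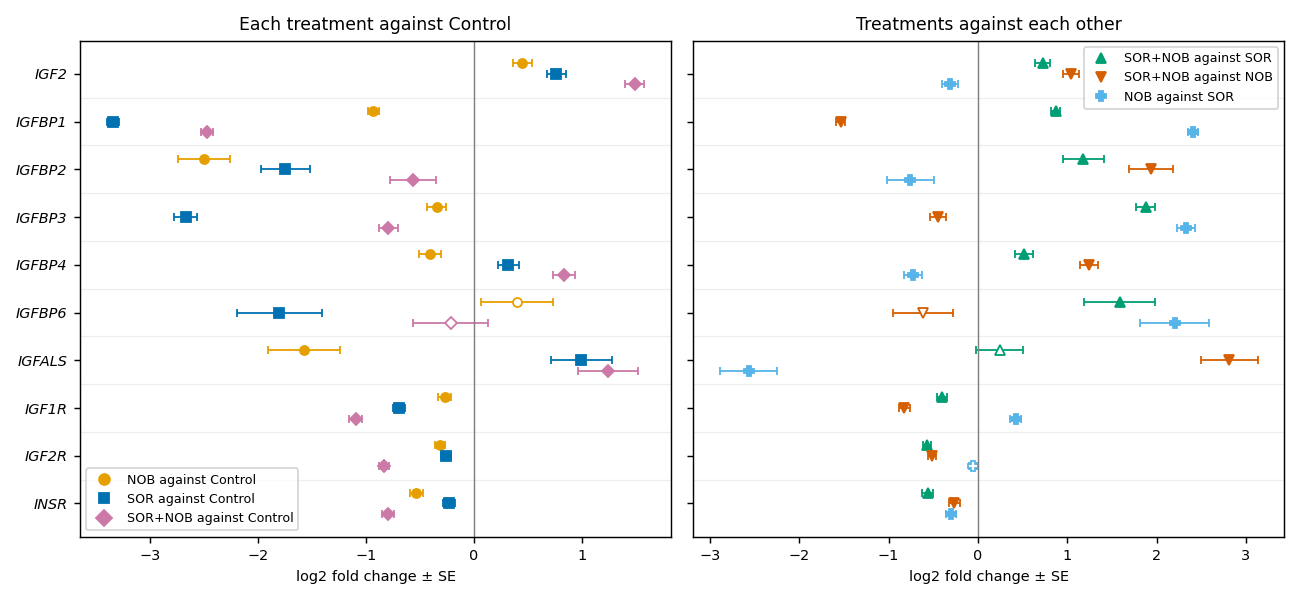
Log2 fold change with its SE for each gene, at left for each treatment against Control and at right for the treatments against each other. Filled symbols are adjusted p below 0.05 and open symbols are not; IGFBP1 lay at -3.34 in SOR and at -2.47 in SOR+NOB, and IGF2 was above 0 in all 3 comparisons with Control.

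The ligand rose with every treatment. IGF2 (ENSG00000167244) lies on the minus strand of chromosome 11 at 2129112 to 2149603 (GRCh38). It measured 76.2, 76.9 and 73.0 CPM in NOB libraries, 92.6, 103.5 and 85.0 in SOR libraries, 134, 148 and 182 in SOR+NOB libraries, and 53.5, 53.5 and 58.5 in Control libraries. No 2 groups overlapped, and the order was SOR+NOB, SOR, NOB and Control from high to low. How often groups stay apart in this way among all genes was not counted, here or for the genes below. The log2 fold change against Control was 0.45 ± 0.09 in NOB (edgeR adjusted p = 0.000392), 0.76 ± 0.09 in SOR (4.84e-07) and 1.49 ± 0.09 in SOR+NOB (5.31e-12), or 1.37-fold, 1.70-fold and 2.80-fold. Without SOR+NOB replicate 1 the last was 1.57. SOR+NOB exceeded SOR by 0.72 ± 0.09 (2.90e-07) and NOB by 1.04 ± 0.09 (1.60e-09).

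The IGF2 locus limits how its level reads. Of its 6979 exon bases, 73.7% are also annotated on the same strand to the second IGF2 gene (ENSG00000284779), to INS-IGF2 or to AC132217.1, 333 lie opposite IGF2-AS, and 25.0% belong to IGF2 alone. How reads over shared bases were counted is not given in the sources used here, so its level per length is uncertain. All groups were counted over the same annotation. INS-IGF2, whose exon bases are all shared with IGF2 or INS, had 0 counts in all groups, as did the second IGF2 gene. Whether reads over shared bases were left out was not tested. If they were, the level of IGF2 per length, and its ratio to the binding proteins below, would be too low. IGF2-AS, the antisense transcript, averaged 0.829 CPM in NOB, 2.15 in SOR, 1.98 in SOR+NOB and 1.86 in Control. IGF2-AS is outside the rule by which genes were named, and its counts summed to 58 in NOB and 122 in Control. It was lower in NOB (log2 fold change -1.16 ± 0.37, edgeR adjusted p = 0.0153), where IGF2 was higher, and was not called in SOR (0.21 ± 0.34) or SOR+NOB (0.11 ± 0.34). INS had 0 counts in all groups, and IGF1 had 3 in NOB and 0 elsewhere, so IGF2 was the only member of the insulin and IGF ligands detected beyond 3 counts in a group.

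IGFBP1 had the largest fold change of the 10 genes in SOR and in SOR+NOB against Control, while in NOB IGFBP2 and IGFALS changed by more. It encodes the small secreted protein by which the liver adjusts free IGF within hours, and it lies on the plus strand of chromosome 7 at 45888357 to 45893668. It measured 3533, 3632 and 3648 CPM in NOB libraries, 677, 683 and 675 in SOR libraries, 1360, 1187 and 1179 in SOR+NOB libraries, and 7159, 6827 and 6661 in Control libraries. No groups overlapped, and every treated library lay below every Control library. The log2 fold change was -0.93 ± 0.05 in NOB (edgeR adjusted p = 2.73e-12), -3.34 ± 0.06 in SOR (2.98e-21) and -2.47 ± 0.05 in SOR+NOB (1.10e-19; -2.55 without replicate 1). That made IGFBP1 1.91-fold lower in NOB, 10.1-fold lower in SOR and 5.54-fold lower in SOR+NOB. In SOR 99.3% of all genes tested had a smaller absolute change, in NOB 87.1% and in SOR+NOB 94.4%. SOR+NOB stood above SOR by 0.87 ± 0.05 (2.57e-12) and below NOB by a log2 difference of -1.54 ± 0.05 (3.09e-16). By FPKM, the authors' level scaled for gene length and depth, its mean ranked 15 of 19951 protein-coding genes in NOB, 60 in SOR, 38 in SOR+NOB and 9 in Control.

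IGFBP3, the main carrier of IGF in blood, lies 18576 bases from IGFBP1 on the minus strand (chromosome 7, 45912245 to 45921874) and had the same order of groups. It measured 30.3, 31.6 and 29.6 CPM in NOB libraries, 5.43, 6.44 and 6.45 in SOR libraries, 23.6, 21.2 and 22.3 in SOR+NOB libraries, and 42.0, 37.1 and 37.0 in Control libraries. The SOR libraries lay far below the others, and no groups overlapped. It fell 6.36-fold in SOR (log2 fold change -2.67 ± 0.10, edgeR adjusted p = 4.03e-15), and by less in NOB (-0.34 ± 0.09, 0.00321) and SOR+NOB (-0.79 ± 0.09, 8.08e-08; -0.84 without replicate 1). SOR+NOB exceeded SOR 3.67-fold (1.88 ± 0.10, 7.31e-13). PDGFRB, given above, was also highest in Control but lowest in SOR+NOB, while the other fibroblast and stellate markers were near 0.

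IGFBP2, a binding protein of fetal liver and of many tumours, was lowest with nobiletin alone. Its gene is on chromosome 2 (216632828 to 216664436, plus strand). It measured 1.34, 2.13 and 1.78 CPM in NOB libraries, 3.30, 2.22 and 3.25 in SOR libraries, 6.05, 9.10 and 4.84 in SOR+NOB libraries, and 8.88, 10.4 and 10.3 in Control libraries. NOB and SOR libraries stayed below all Control libraries, while 1 SOR+NOB library fell within the Control range. IGFBP2 fell 5.66-fold in NOB (log2 fold change -2.50 ± 0.24, edgeR adjusted p = 1.79e-08) and 3.35-fold in SOR (-1.74 ± 0.23, 1.55e-06). In NOB 99.1% of all genes changed by less. Its fall in SOR+NOB was small (-0.56 ± 0.21, 0.0234; -0.51 without replicate 1) and missed the threshold without Control replicate 2 (0.0639), Control replicate 3 (0.0595) or SOR+NOB replicate 3 (0.132). SOR+NOB exceeded NOB by 1.94 ± 0.24 (4.66e-07) and SOR by 1.18 ± 0.23 (0.00013). Its neighbour IGFBP5, 7668 bases away, had 0 counts in NOB and SOR and 1 in each of SOR+NOB and Control.

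IGFBP4, which restrains IGF until the protease PAPPA cleaves it, moved in opposite directions under the single compounds. The gene is on chromosome 17 (40443461 to 40457731, plus strand). It measured 33.6, 30.2 and 30.8 CPM in NOB libraries, 46.4, 53.3 and 57.3 in SOR libraries, 60.7, 83.9 and 79.1 in SOR+NOB libraries, and 43.0, 40.1 and 42.6 in Control libraries. NOB libraries lay below and SOR and SOR+NOB libraries above every Control library. It fell in NOB (log2 fold change -0.41 ± 0.10, edgeR adjusted p = 0.00255) and rose in SOR+NOB (0.83 ± 0.10, 1.84e-07; 0.95 without replicate 1). The rise in SOR (0.32 ± 0.10, 0.0133) missed the threshold without Control replicate 2 (0.062) or SOR replicate 3 (0.0896). SOR+NOB exceeded SOR by 0.51 ± 0.10 (9.89e-05).

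IGFBP6, which prefers IGF2 over IGF1, was at a few CPM (chromosome 12, 53097436 to 53102345, plus strand). It had 113, 61 and 87 counts in NOB libraries, 25, 13 and 12 in SOR libraries, 16, 88 and 55 in SOR+NOB libraries, and 71, 55 and 59 in Control libraries. In CPM this was 4.73, 2.89 and 3.51 in NOB, 1.05, 0.722 and 0.609 in SOR, 0.880, 3.78 and 2.49 in SOR+NOB, and 3.12, 2.61 and 2.71 in Control. SOR libraries lay below every Control and NOB library, and the SOR+NOB libraries overlapped all 3 other groups. IGFBP6 fell 3.49-fold in SOR (log2 fold change -1.80 ± 0.39, edgeR adjusted p = 0.000754) and was not called in NOB (0.40, 95% interval -0.29 to 1.09, adjusted p = 0.378). In SOR+NOB it was not called against Control (-0.22, interval -0.93 to 0.50, adjusted p = 0.599), and the value was 0.15 without replicate 1. Against SOR it was higher in SOR+NOB (1.59 ± 0.40, 0.00152; 1.95 without replicate 1). Against NOB it was not called (-0.62, interval -1.32 to 0.09, adjusted p = 0.12), but was without SOR+NOB replicate 2 (-1.11, 0.0101).

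Set together per length, IGFBP1 made up most of the measured binding protein messenger RNA in each group. The summed FPKM of the 5 binding proteins was 2179 ± 40.1 in NOB, 433 ± 5.40 in SOR, 778 ± 61.2 in SOR+NOB and 4180 ± 180 in Control (SD, n = 3). IGFBP1 held 98.9%, 94.0%, 94.7% and 99.2% of it in that order of groups. The rest summed to 23.8 ± 1.3 FPKM in NOB, 26.1 ± 2.4 in SOR, 41.1 ± 6.1 in SOR+NOB and 31.6 ± 1.4 in Control. Within this rest, IGFBP4 held 59.4% ± 0.3 in NOB, 90.3% ± 1.3 in SOR, 80.7% ± 1.4 in SOR+NOB and 60.1% ± 1.0 in Control. IGFBP3 held 27.7% ± 2.0 in NOB, 5.07% ± 0.18 in SOR, 11.9% ± 2.7 in SOR+NOB and 26.7% ± 1.2 in Control. For each 100 FPKM of binding protein there were 0.490 ± 0.019 FPKM of IGF2 in NOB, 3.07 ± 0.29 in SOR, 2.82 ± 0.60 in SOR+NOB and 0.189 ± 0.016 in Control. That ratio did not overlap between Control and any treated group, and SOR and SOR+NOB overlapped. These sums and ratios are descriptions of messenger RNA with no test, and the IGF2 term carries the limit on its shared exons.

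**Figure D3:**
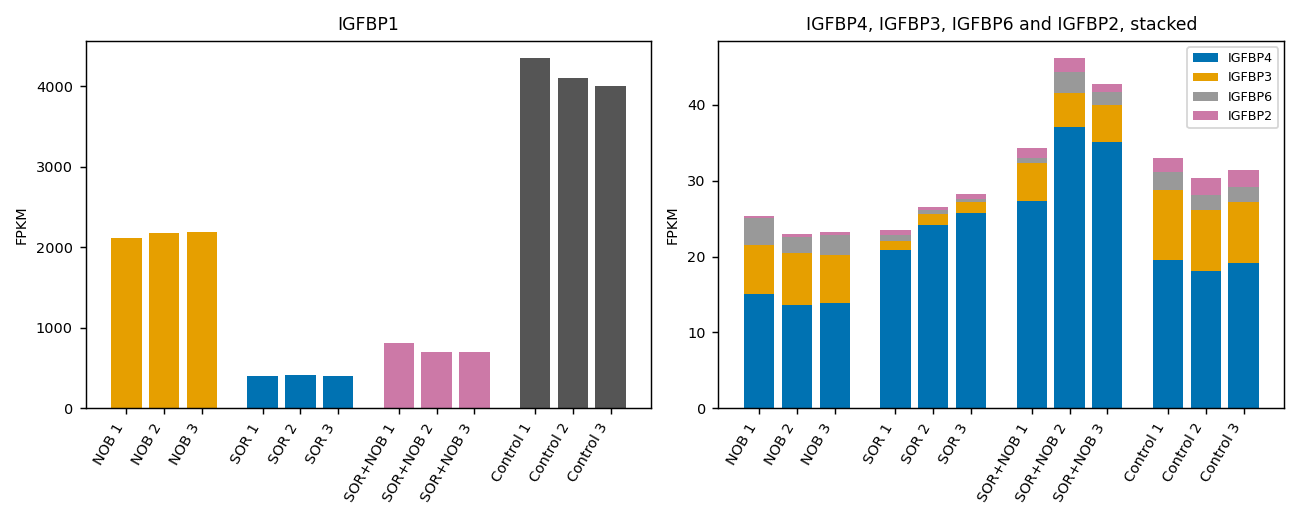
FPKM per library of IGFBP1 (left) and of IGFBP4, IGFBP3, IGFBP6 and IGFBP2 stacked (right), with NOB, SOR, SOR+NOB and Control from left to right. IGFBP1 averaged 407 FPKM in SOR and 4149 in Control, and the stack at right averaged 26.1 FPKM in SOR and 31.6 in Control with little IGFBP3 left in SOR.

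IGFALS, the liver protein that joins IGF and IGFBP3 in the large complex of blood, had the same order of groups as IGFBP4 (chromosome 16, 1790413 to 1794971, minus strand). It had 18, 12 and 18 counts in NOB libraries, 117, 86 and 51 in SOR libraries, 97, 105 and 105 in SOR+NOB libraries, and 29, 46 and 59 in Control libraries. In CPM this was 0.753, 0.569 and 0.726 in NOB, 4.89, 4.77 and 2.59 in SOR, 5.33, 4.51 and 4.75 in SOR+NOB, and 1.28, 2.18 and 2.71 in Control. NOB libraries lay below all others, SOR+NOB libraries lay above all Control libraries, and 1 SOR library overlapped Control. IGFALS fell 2.97-fold in NOB (log2 fold change -1.57 ± 0.34, edgeR adjusted p = 0.000656) and rose 2.36-fold in SOR+NOB (1.24 ± 0.28, 0.000514; 1.17 without replicate 1). Its rise in SOR (0.99 ± 0.28, 0.00655) missed the threshold without Control replicate 1 (0.0536). SOR+NOB and SOR were not told apart (0.25, 95% interval -0.30 to 0.79, adjusted p = 0.429), and the value was -0.01 without SOR replicate 3.

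The 3 receptors fell with every treatment and lay lowest with both compounds. IGF1R, the signalling receptor (chromosome 15, 98648539 to 98964530, plus strand), measured 220.0, 243 and 235 CPM in NOB libraries, 168, 184 and 169 in SOR libraries, 129.5, 124 and 141 in SOR+NOB libraries, and 279.8, 271 and 291 in Control libraries. No groups overlapped. It fell by a log2 fold change of -0.27 ± 0.06 in NOB (edgeR adjusted p = 0.000691), -0.69 ± 0.06 in SOR (2.09e-09) and -1.09 ± 0.06 in SOR+NOB (5.13e-13; -1.09 without replicate 1). SOR+NOB lay below SOR (-0.40 ± 0.06, 4.30e-06) and NOB (-0.82 ± 0.06, 7.38e-11).

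IGF2R, the clearance receptor for IGF2 (chromosome 6, 159969099 to 160113507, plus strand), measured 671, 687 and 679.5 CPM in NOB libraries, 695, 728 and 698 in SOR libraries, 474, 468 and 482 in SOR+NOB libraries, and 850.3, 839 and 844 in Control libraries. INSR (chromosome 19, 7112255 to 7294034, minus strand) measured 123, 124 and 133 CPM in NOB libraries, 146, 164 and 159 in SOR libraries, 101, 109 and 106 in SOR+NOB libraries, and 184, 178 and 188 in Control libraries. In both genes the SOR+NOB libraries were lowest, the Control libraries highest and no groups overlapped. The NOB and SOR libraries of IGF2R lay close, and these groups were not told apart (edgeR adjusted p = 0.325). IGF2R fell by -0.31 ± 0.04 in NOB (edgeR adjusted p = 4.19e-06), -0.26 ± 0.04 in SOR (4.83e-05) and -0.83 ± 0.04 in SOR+NOB (3.31e-13; -0.84 without replicate 1), on the log2 scale. INSR fell by -0.53 ± 0.06 in NOB (1.10e-07), -0.23 ± 0.06 in SOR (0.00209) and -0.80 ± 0.06 in SOR+NOB (7.08e-11; -0.77 without replicate 1). In absolute size, 50% of all genes changed by less than IGF2R in NOB, and 61.3% by less than INSR in SOR+NOB.

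The receptors shifted against each other. IGF1R stood at 1.38 ± 0.08 FPKM per FPKM of INSR in NOB, 0.835 ± 0.032 in SOR, 0.936 ± 0.075 in SOR+NOB and 1.15 ± 0.01 in Control (SD, n = 3). Per length, IGF1R thus exceeded INSR in NOB and Control and not in SOR or SOR+NOB. In CPM, not scaled to length, IGF1R averaged above INSR in each group (174 and 156 in SOR, 132 and 106 in SOR+NOB). The crossing thus rests on the gene lengths used. IGF2R stood at 2.28 ± 0.09 FPKM per FPKM of IGF1R in NOB, 3.18 ± 0.07 in SOR, 2.82 ± 0.13 in SOR+NOB and 2.35 ± 0.08 in Control. Neither ratio was tested.

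Promoter letters are shown for the receptors because they fell together, and for IGFBP4 and IGFBP6 as the members with TATAAA and GTAAACA. RefSeq windows on GRCh38.p14, from 250 bases before to 50 bases after a start site, were found for 8 of 10 members (10 windows). IGF2 and IGFBP1 had none in the table. They were searched on both strands for GTAAACA (a forkhead core, in 3.42% of 35116 windows of the same length), CAAAACA (letters of the insulin response sequence, 4.92%), ACGTG (the core of hypoxia response elements and of some E-boxes, 21.4%), TGATGCAA (a C/EBP-ATF composite site, 0.866%) and TATAAA (the TATA box, 11.5%). IGFBP2 held ACGTG once, in 1 of its 3 windows. IGF2R held ACGTG at 3 places, each of which also matched on the other strand with 4 of 5 letters shared. Below, each stretch of 30 bases is on the plus strand, 5′ to 3′, and capitals mark the match. INSR, IGFBP3 and IGFALS held no match, which says only that these letters are not in these windows, and a match is no evidence that a factor binds.
IGF2R, chr6:159968939-159968968: cgcgctgcgctcACGTGacccgggcctggg
IGF2R, chr6:159968997-159969026: aacaagggagtcACGTGagcggggggcggg
IGF2R, chr6:159969043-159969072: cgggcggctgtcACGTGacgcggttccggg
IGF1R, chr15:98648381-98648410, match on the minus strand: ggctccgctccgCACGTcttggggaaccgg
IGFBP4, chr17:40443409-40443438: gccagggaccggTATAAAgtccgggggagc
IGFBP6, chr12:53097470-53097499: caatttgggaaGTAAACAgaaactggaaag

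The interaction asked whether nobiletin moved a gene by a different amount with sorafenib than without, on the log2 scale. It was called for 6 of 10 members, where 52.0% of all genes were, with 5 above 0 (25.1% of all genes) and 1 below 0 (26.9%). The member median was 1.06, where that of all genes was -0.04. IGFBP2 had the largest value (3.68 ± 0.33, edgeR adjusted p = 4.64e-09): the single changes summed to -4.25, and the combination gave -0.56. IGFBP3 (2.22 ± 0.14, 8.71e-12) summed to -3.01 and gave -0.79, and IGFBP1 (1.81 ± 0.07, 1.03e-14) summed to -4.28 and gave -2.47. All 3 were thus less reduced by the combination than by the sum of the single log2 changes. IGFALS (1.82 ± 0.43, 0.00113) summed to -0.58 and gave 1.24, and IGFBP4 (0.92 ± 0.14, 9.92e-06) summed to -0.09 and gave 0.83. Both ended above Control and above the sum. Whether these sums differed from 0 was not tested.

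The receptors and the ligand lay nearer to the sum. IGF2R was the member with a called interaction below 0 (-0.26 ± 0.06, edgeR adjusted p = 0.00126): the single changes summed to -0.57, and the combination gave -0.83. The interaction was not called for IGF1R (-0.13, 95% interval -0.30 to 0.04, adjusted p = 0.202) or INSR (-0.03, interval -0.20 to 0.14, adjusted p = 0.789). For IGF2 it missed the threshold (0.28 ± 0.13, adjusted p = 0.0721), but passed it without SOR replicate 2 (0.34, 0.0352) or SOR+NOB replicate 1 (0.36, 0.00676). For IGFBP6 it also missed (1.19 ± 0.52, adjusted p = 0.0616), and passed without NOB replicate 1 (0.0462), SOR replicate 1 (0.0492) or SOR+NOB replicate 1 (1.55, 0.000838) and with no filter on low counts (0.0323).

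**Figure D4:**
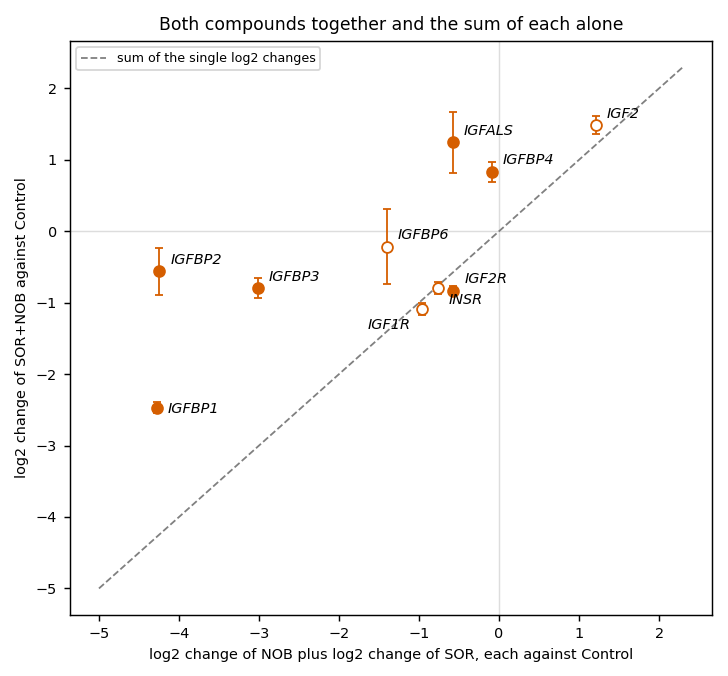
Log2 change of SOR+NOB against Control (vertical axis) against the sum of the log2 changes of NOB and of SOR against Control (horizontal axis), with the SE of the interaction as error bar and the line of equal values dashed. Filled points have an interaction with adjusted p below 0.05; IGFBP2, IGFBP1 and IGFBP3 lie far above the line, and the receptors lie near it.

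Set against the single compounds, the combination changed 9 of 10 members in each case. Against SOR, 6 were higher and 3 lower, where 63.0% of all genes were called (31.4% higher, 31.6% lower): the 3 lower ones were the receptors. Against NOB, 4 were higher (IGF2, IGFBP2, IGFBP4 and IGFALS) and 5 lower (IGFBP1, IGFBP3 and the receptors), where 60.7% of all genes were called (30.3% higher, 30.4% lower). IGFALS was the gene not called against SOR, and IGFBP6 the gene not called against NOB. The same held without SOR+NOB replicate 1.

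The single compounds were given at different doses, so their arms are compared here as given. In NOB against SOR 9 of 10 members were called, where 40.5% of all genes were, with 4 higher (19.8% of all genes) and 5 lower (20.7%). IGFBP1 (5.31-fold, edgeR adjusted p = 3.97e-19), IGFBP3 (5.02-fold, 2.48e-14), IGFBP6 (4.6-fold, 7.00e-05) and IGF1R (1.34-fold, 3.37e-06) were higher in NOB. IGFALS was 5.92-fold lower in NOB (7.65e-07), IGFBP4 1.66-fold (3.67e-06) and INSR 1.23-fold (0.000196). IGF2 was 1.24-fold lower in NOB (0.00693), a call lost without SOR replicate 2 (0.0547). IGFBP2 was 1.69-fold lower in NOB (log2 fold change -0.76 ± 0.26, 0.0238), a call lost without NOB replicate 1 (0.119), NOB replicate 3 (0.0523), SOR replicate 1 (0.0924) or SOR replicate 3 (0.0766), and in limma on the FPKM values (0.17 and 0.0675 with pseudocounts of 1 and 0.1). IGF2R was not told apart (log2 difference -0.06, 95% interval -0.15 to 0.03, adjusted p = 0.325).

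Of 52 other genes of insulin and IGF signalling, 40 passed the filter. Among the 12 that did not, INS and INS-IGF2 had 0 counts in all libraries, and IGF1, GHR (the growth hormone receptor) and H19 (the imprinted neighbour of IGF2) had 0 in Control. All exon bases of INS-IGF2 (100%) are shared with IGF2 or INS, so its 0 does not show that it was silent. In NOB against Control 5 of the 40 were higher and 16 lower, with a median log2 fold change of -0.13. In SOR 11 were higher and 12 lower, with a median of 0.01, and in SOR+NOB 11 were higher and 20 lower, with a median of -0.17. The called share was 52.5% in NOB, 57.5% in SOR and 77.5% in SOR+NOB, where 38.2%, 41.0% and 64.2% of all genes were called.

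At the receptors' first step, IRS1, the adaptor that both signalling receptors phosphorylate, averaged 53.4 ± 2.0 CPM in NOB, 134 ± 4.6 in SOR, 54.5 ± 2.8 in SOR+NOB and 113 ± 4.4 in Control (SD, n = 3). It fell in NOB (log2 fold change -1.09 ± 0.06, edgeR adjusted p = 3.15e-12) and SOR+NOB (-1.06 ± 0.06, 1.65e-12) and rose in SOR (0.24 ± 0.06, 0.00223). PIK3R1, the regulatory subunit of phosphoinositide 3-kinase, averaged 17.6 ± 2.8 CPM in SOR+NOB and 64.2 ± 1.1 in Control, a fall of -1.87 ± 0.09 (3.71e-14). The adaptor GRB2, which links receptors to RAS, fell in NOB (-0.39), SOR (-0.28) and SOR+NOB (-0.44). GRB14, an adaptor that holds back the insulin receptor, fell in NOB (-0.38) and SOR (-0.50) and rose in SOR+NOB (0.57), each against Control. It was higher in SOR+NOB than in NOB by 0.95 on the log2 scale.

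Further down, with log2 fold changes against Control in brackets, AKT2 (-0.89), the transcription factor FOXO4 (-1.96) and the IGF2 mRNA-binding protein IGF2BP3 (-1.09) fell in SOR+NOB. TRIB3, a pseudokinase that binds AKT, rose there (0.84 ± 0.05, edgeR adjusted p = 1.60e-12), as did JAK2 (1.51) and STAT5A (1.28) of growth hormone signalling. In SOR STAT5A (1.37) and the kinase PDPK1 (0.39) rose, while MTOR (-0.59), its partner RPTOR (-0.51), FOXO1 (-0.63) and GSK3B (-0.41) fell. In SOR+NOB PDPK1 fell instead (-0.44), RPTOR (-0.80), GSK3B (-0.83) and FOXO1 (-0.24) were also lower, and MTOR was not called (-0.10). In NOB MTOR (-0.32), RPTOR (-0.20) and FOXO1 (-0.55) were lower too, and GSK3B was not called (-0.14). In NOB the AKT phosphatase PHLPP1 (-0.60), STAT5A (-0.84) and IGF2BP2 (-0.37) fell. PHLPP1 (-0.72) and IGF2BP2 (-0.44) were also lower in SOR+NOB. In SOR IGF2BP2 was lower (-0.17), while PHLPP1 was not called (0.02).

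FURIN, a protease that matures the IGF1R and INSR precursors, averaged 134.9 ± 15.6 CPM in SOR+NOB and 44.8 ± 1.4 in Control, a rise of 1.59 ± 0.07 (edgeR adjusted p = 4.06e-14), and it rose by 0.69 ± 0.07 in SOR (1.00e-07) and was not called in NOB (0.11 ± 0.08, 0.257). STC2, which inhibits the protease that cleaves IGFBP4, rose in NOB (0.63 ± 0.05, 2.70e-09) and SOR (0.44 ± 0.05, 4.93e-07) but fell in SOR+NOB (-0.14 ± 0.05, 0.0304), with an interaction of -1.21 ± 0.08 (1.10e-11). IDE, which degrades insulin and IGF2, rose in NOB (0.66 ± 0.09, 7.15e-06) and SOR+NOB (0.51 ± 0.10, 8.45e-05) and fell in SOR (-0.36 ± 0.10, 0.00493). The values of FURIN in NOB and of IDE in SOR and SOR+NOB are outside the naming rule and were added after they were seen. PAPPA, the protease of IGFBP4, is also outside that rule and was likewise chosen after its values were seen. It had 24, 18 and 39 counts in NOB libraries, 88, 46 and 63 in SOR libraries, 0, 10 and 6 in SOR+NOB libraries, and 27, 31 and 25 in Control libraries. SOR libraries lay above and SOR+NOB libraries below every Control library, and NOB overlapped Control. PAPPA was higher in SOR (log2 fold change 1.31 ± 0.39, edgeR adjusted p = 0.00968), a call lost without SOR replicate 1 (0.0528), and was not called in NOB (-0.14 ± 0.41, 0.829). It was lower in SOR+NOB (-2.33 ± 0.52, 0.000447), at -1.84 without SOR+NOB replicate 1 and -3.06 without replicate 2, and its interaction was -3.50 ± 0.65 (9.90e-05; -3.01 and -4.23 without those libraries).

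The other 3 genes higher in NOB were less firm. PDPK1 (0.18, adjusted p = 0.00867) missed the threshold without Control replicate 2 or 3 or NOB replicate 2 (up to 0.0742). SOS1 (0.31, 0.0198) missed it without Control or NOB replicate 2 or 3 (up to 0.0811) and in limma on the FPKM values (0.073 and 0.0769). GRB10 (0.21, 0.0485) missed it without Control replicate 1 or 2, any NOB or SOR library or SOR+NOB replicate 3 (0.0552 to 0.263), and with RLE scaling, no filter, the replicate block, DESeq2 and limma (0.0607 to 0.12).

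**Figure D5:**
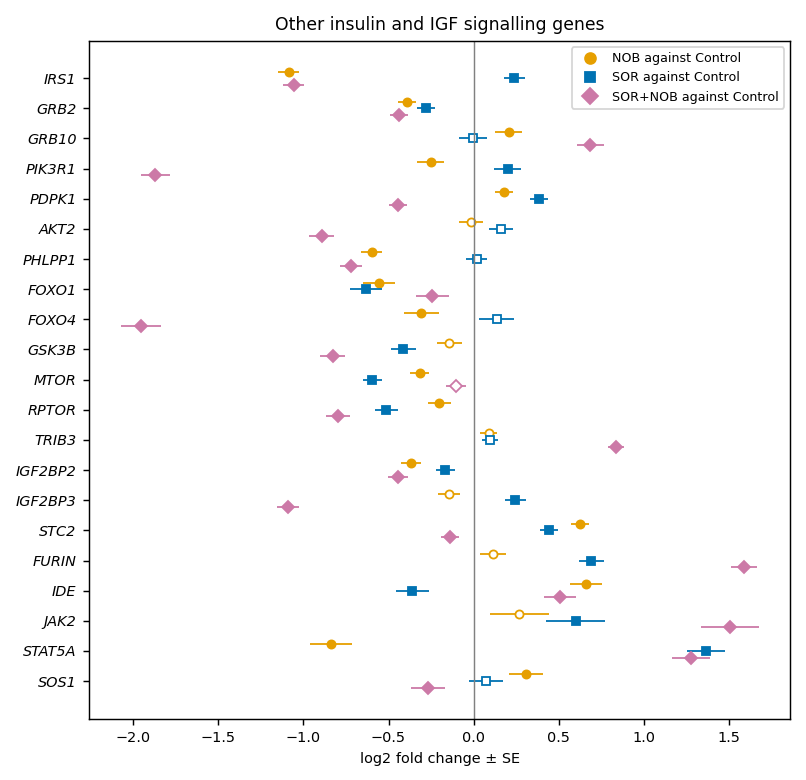
Log2 fold change with its SE of other insulin and IGF signalling genes named in a comparison with Control, for NOB, SOR and SOR+NOB. Filled symbols are adjusted p below 0.05; PIK3R1 (-1.87) and FOXO4 (-1.96) lay far below 0 in SOR+NOB, and FURIN lay at 1.59 there.

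Some genes outside both lists followed members closely over the 12 libraries. The measure was Pearson's r of log2 CPM among 11068 protein-coding genes that averaged 2 CPM or more, given as a description of 4 group means and their replicates. IGF2 was most like AARS (r = 0.982), PLCG1 (0.976) and AUP1 (0.975). IGFBP1 was most like PRR26 (0.997), EPB41L2 (0.996) and LAMB1 (0.996), and IGF1R was most like TRA2A (0.988), POLR1A (0.987) and ARRB1 (0.986). LAMB1, a laminin chain, averaged 558 ± 19.5 CPM in NOB, 321.5 ± 7.7 in SOR, 389 ± 20.4 in SOR+NOB and 652 ± 4.0 in Control (SD, n = 3), the order of groups that IGFBP1 had. AARS, the alanyl-tRNA synthetase, averaged 400.5 ± 8.9 CPM in NOB, 447 ± 6.7 in SOR, 550.0 ± 29.2 in SOR+NOB and 366 ± 5.4 in Control, the order that IGF2 had.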

How the data were processed

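RNA of 12 HepG2 libraries, 3 each of NOB, SOR, SOR+NOB and Control, was sequenced. Per the submitters' processing notes, the authors aligned reads with HISAT2 2.0.5 to GRCh38 and counted them with featureCounts 1.5.0-p3. Strand setting and handling of reads over more than 1 gene or place: not given in the sources used here. Raw counts per gene are in a deposited count table, and a deposited FPKM table of the same libraries gave levels per length. Per the labels' protocols, libraries were made by poly(A) capture or ribosomal RNA removal, without saying which.

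Groups came from the sample labels. The counts went into edgeR 4.0.16 under R 4.3.3. The filter filterByExpr by group left 17115 genes, and libraries were scaled by TMM. The quasi-likelihood model was robust, held a mean for each group and used all 12 libraries, which left 8 residual degrees of freedom (biological coefficient of variation 8.44%). Benjamini-Hochberg adjustment ran over all genes within each comparison, with calls at adjusted p below 0.05. Errors after a log2 fold change are SEs, and intervals are 95%. The script was tested on simulated data. Every pair of replicates differed by more than sampling noise. Gene positions and exons came from GENCODE 29, and promoter letters from RefSeq.

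The members and gene lists were chosen with earlier results of these data known. All members are named, and of the pathway list up to 5 called genes with the smallest p in each direction and comparison. Not every gene that this rule took is reported here. Fold changes outside this rule are given for IGF2-AS and PAPPA. In some comparisons they are also given for FURIN, IDE, IRS1, GRB2, STC2, GRB14, PDPK1, MTOR, RPTOR, FOXO1, GSK3B, PHLPP1 and IGF2BP2. Alternatives were RLE scaling, no filter (33593 genes), only the compared libraries, a replicate block, DESeq2 1.42.0, limma 3.58.1 on log2(FPKM + 1) and log2(FPKM + 0.1) with FPKM averaging at least 0.5, and leaving out each library. Python 3.11.15 with matplotlib 3.10.9 drew the figures.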

Additional observations from a re-analysis of the deposited data

Results flagged for a closer look

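For 6 of 10 members nobiletin acted by a different amount with sorafenib than without it, by the interaction term of the edgeR quasi-likelihood model. That term was called for 52.0% of all genes tested and for 75% of the 40 other signalling genes that passed the filter. The count by itself thus does not set the members apart. The difference of the log2 changes was 3.68 for IGFBP2, 2.22 for IGFBP3, 1.82 for IGFALS, 1.81 for IGFBP1, 0.92 for IGFBP4 and -0.26 for IGF2R. Without SOR+NOB replicate 1 these differences were 3.74, 2.18, 1.74, 1.73, 1.05 and -0.26 in the same order. For IGFALS and IGFBP4 nobiletin alone gave -1.57 and -0.41 against Control, and with sorafenib it gave 0.25 (not called) and 0.51 against SOR. Groups of 3 were not tested here for an outlying library.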

How the results depend on the processing

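Of 1320 values of the 10 members under the alternatives, 1298 kept their direction and their side of the threshold, 13 lost a call, 7 gained one and 2 changed sign. Both changes of sign were in differences that were not called: IGFBP6 in SOR+NOB against Control (-0.71 to 0.15 with a library left out, the highest without SOR+NOB replicate 1) and IGFALS in SOR+NOB against SOR (-0.014 to 0.38, the lowest without SOR replicate 3). The cause was not tested. With a library left out, 9 members were called in NOB, 9 to 10 in SOR and 8 to 9 in SOR+NOB against Control. All genes called then numbered 5463 to 7944, 5968 to 8420 and 10160 to 11392, of 17752 to 17914 tested. Against SOR, SOR+NOB had 9 members called (10049 to 11222 of all genes), and against NOB it had 9 to 10 (9592 to 10905). NOB against SOR had 8 to 9 (5967 to 8353 of all genes), and the interaction had 6 to 8 (8280 to 9807). Of 1442 values of other signalling genes in the comparisons checked, 25 lost a call, each against Control. These were 1 of PAPPA in SOR and the rest of PDPK1, SOS1 or GRB10 in NOB. Not checked under the alternatives were IGF2-AS, IRS1 in SOR, and GRB2 and STC2 in SOR+NOB, each against Control. Also not checked against Control were GRB14 in any group, and MTOR, RPTOR, FOXO1 and GSK3B in NOB. The same holds for PHLPP1 and IGF2BP2 in SOR, and for PDPK1, MTOR, RPTOR, FOXO1, GSK3B, PHLPP1 and IGF2BP2 in SOR+NOB. PAPPA in NOB against Control, not called, changed sign (-0.45 to 0.020 with a library left out, the highest without NOB replicate 2). PAPPA and IRS2 averaged under 0.5 FPKM and have no limma value. RLE scaling moved the median of all genes by at most 0.02 (log2).

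Replicate numbers are shared by the groups, so pairing was checked. Same-numbered libraries deviated from their group means with a median correlation of -0.01 over 18 pairs (-0.05 to 0.04), and 2 of 12 libraries correlated best with their own number, so the numbers were not used. With the number as a block, the members called stayed at 9, 10 and 9 in NOB, SOR and SOR+NOB against Control, and all genes called were 6347, 6816 and 10798, against 6536, 7020 and 10981 without it. Depth limits IGFBP2, IGFBP6 and IGFALS most, which had 12 to 225 counts per library.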
